A study of Glycine max with 10 samples.

Results

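The 4 LHY genes of soybean (Glycine max), LHY1a (Glyma.16G017400.Wm82.a2.v1), LHY1b (Glyma.07G048500.Wm82.a2.v1), LHY2a (Glyma.19G260900.Wm82.a2.v1) and LHY2b (Glyma.03G261800.Wm82.a2.v1), were taken by their gene IDs from a table of 56044 genes, and all 4 had enough counts to be tested. Pods were collected 18 days after flowering from field-grown plants and sequenced as paired-end RNA libraries. The high_force group held 5 soybeans with high pod shattering force (015, 018, 044, 060 and 071) and the low_force group 5 with low pod shattering force (038, 055, 072, 092 and 109). The labels name no genotype, strain, treatment or hour of sampling, and they do not define a numbered soybean (plant, line or pool). P-values therefore cover no more than the spread between these 10 samples.

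LHY, with its close relative CCA1, is a MYB-like transcription factor of the morning arm of the plant circadian clock. In Arabidopsis its transcript peaks around dawn, and the protein represses evening genes, among them genes of the evening complex, which in turn acts at night. In soybean the LHY genes are repressed by the pseudo-response regulators PRR3a and PRR3b, and LHY itself represses E1, a legume-specific repressor of the florigen genes FT2a and FT5a. The names LHY1a, LHY1b, LHY2a and LHY2b come from published soybean work. RefSeq (assembly Glycine_max_v4.0) lists them as other names of LCL1, LCL4, LCL3 and MYB114 on chromosomes 16, 7, 19 and 3, which are also the chromosomes in the 4 gene IDs.

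Library totals ran from 3779756 counts (high_force 018) to 13298201 counts (high_force 044). Levels are given as CPM, counts brought to a common library size with TMM factors (the trimmed mean of M-values). Where a gene has 0 counts, up to 3 would be possible, equal to 0.149 CPM at the depth of high_force 044 and to 3.26 CPM at that of low_force 055, and such limits and intervals cover counting error only. Low_force 055 stood apart, with 85.8% of its counts in its 10 most abundant genes against 3.38 to 36.1% in the other 9 libraries. The pod wall genes SHAT1-5 and NST1A, which encode NAC factors of secondary wall formation, were present in each library, at 17.4 to 30.8 CPM and 25.4 to 44.9 CPM.

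LHY1a had the highest count of the 4 copies in each library. Its level was 1041, 19.3, 14.3, 14.6 and 16.3 CPM in high_force 015, 018, 044, 060 and 071, and 12.8, 653, 647, 11.8 and 14.7 CPM in low_force 038, 055, 072, 092 and 109. High_force 015 and low_force 055 and 072 were thus far above the other 7 libraries, and both groups held libraries of either kind. LHY1b levels were 199.7, 8.24, 6.32, 8.64 and 10.4 CPM for high_force, then 5.92, 139, 104, 7.78 and 8.26 CPM for low_force, in the same order of soybeans. The same 3 libraries were high, with a smaller step than for LHY1a.

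For LHY2a the high_force libraries had 335, 0.937, 1.39, 2.63 and 2.41 CPM, and the low_force libraries 1.39, 196, 286, 4.09 and 3.32 CPM. For LHY2b they had 625, 1.31, 0.945, 3.57 and 0.915 CPM, and 1.16, 423, 406, 1.80 and 1.51 CPM. In the 7 libraries with low LHY these 2 copies rested on few counts, 5 to 41 for LHY2a and 7 to 19 for LHY2b. LHY1a and LHY1b kept 78 to 288 and 44 to 127 counts there. Fewer cells that express a gene and less of its RNA per cell cannot be told apart in these bulk pod samples.

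**Figure D1:**
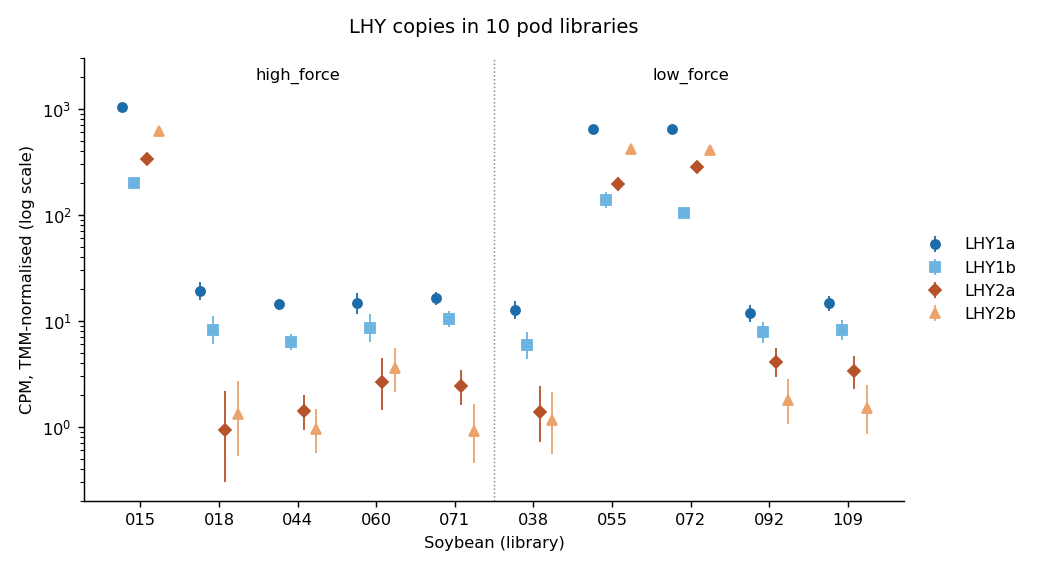
Level of each LHY copy in each library, as TMM-normalised CPM on a log scale, with exact Poisson 95% intervals for counting error. High_force 015 and low_force 055 and 072 lie between 104 and 1041 CPM, and the other 7 libraries between 0.915 and 19.3 CPM.

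The libraries were divided at the widest gap in the mean log2 CPM of the 4 copies, which left 3 libraries (1 high_force, 2 low_force) above and 7 (4 high_force, 3 low_force) below. Since LHY itself sets this division, the differences between the 3 and the 7 libraries are descriptions with no test. The copies differed in the size of the step. The lowest of the 3 libraries lay 10.04-fold above the highest of the 7 for LHY1b (95% interval 8.22 to 12.3), 33.5-fold for LHY1a (27.5 to 41.2), 48.0-fold for LHY2a (34.0 to 69.1) and 114-fold for LHY2b (72.7 to 189.5). These intervals cover counting error in the 2 libraries compared and not the spread between soybeans, and those of LHY1a and LHY2a overlap. From the lowest to the highest of all 10 libraries, LHY1b spanned 33.7-fold, LHY1a 88.4-fold, LHY2a 358-fold and LHY2b 683-fold. Both LHY2 copies therefore had wider ranges than both LHY1 copies, the lowest LHY2 values resting on 5 and 11 counts.

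Among the 3 libraries, values of a copy differed by at most 1.91-fold (LHY1b). Among the 7 they differed by 1.64-fold for LHY1a, 1.76-fold for LHY1b, 4.37-fold for LHY2a and 3.90-fold for LHY2b. At TMM depths the range of each copy thus came mostly from the step between the 3 and the 7, with a larger part from the 7 for the LHY2 copies. The step depends on whether a scaling factor beyond library size is used. It changed little with relative log expression (RLE), upper-quartile or TMM scaling without the most abundant genes. Over these settings LHY1b had 9.67 to 9.86-fold, LHY1a 33.0 to 33.6-fold, LHY2a 47.4 to 48.6-fold and LHY2b 111 to 115-fold. With library size as the only scaling, the fold between the 3 and the 7 was 1.44 for LHY1b, 3.38 for LHY1a, 5.84 for LHY2a and 12.6 for LHY2b, in the same order of copies. In that setting low_force 055 was the lowest of the 3 for each copy and thus set each of these folds. It had 19.6 CPM for LHY1b, 92.2 for LHY1a, 27.7 for LHY2a and 59.7 for LHY2b. This is the library with 85.8% of its counts in its 10 most abundant genes. Without low_force 055 the TMM value was 69.9-fold for LHY2a, and it was not set by that library for the other 3 copies. Without high_force 060 it was 226-fold for LHY2b.

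Because of these unequal steps, the make-up of the LHY counts differed between libraries, a measure that needs no scaling between them. Counts are not divided by gene length here, so a share is compared for the same copy across libraries and not between copies. LHY1b held 9.07% of the LHY counts in high_force 015 (95% Clopper-Pearson interval 8.59 to 9.57), 9.84% in low_force 055 (8.27 to 11.6) and 7.23% in low_force 072 (6.60 to 7.90). In the other 7 libraries it held 27.5 to 34.6%. LHY2b went the other way, at 28.4% in high_force 015 (27.6 to 29.2), 29.98% in low_force 055 (27.5 to 32.5) and 28.1% in low_force 072 (27.0 to 29.3), against 3.05 to 12.1% in the other 7. For both copies the 3 libraries did not overlap with the 7.

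LHY1a and LHY2a overlapped. LHY1a held 44.8 to 47.3% of the LHY counts in the 3 libraries and 46.3 to 64.8% in the 7, with low_force 092 (46.3%) inside the range of the 3. LHY2a held 13.9 to 19.8% in the 3 and 3.14 to 16.1% in the 7, again with low_force 092 (16.1%) inside. The family as a whole reached 0.259% of all counts in high_force 015, and 0.00248% in low_force 038, the lowest.

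**Figure D2:**
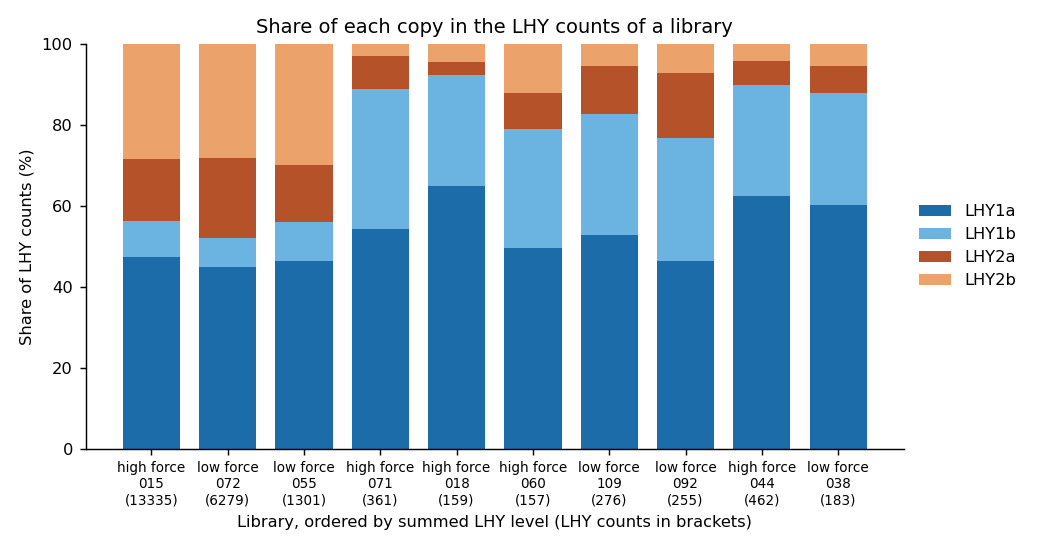
Share of each copy in the LHY counts of a library, in percent, with libraries ordered by their summed LHY level and the number of LHY counts in brackets. LHY1b takes 7.23 to 9.84% in the 3 libraries on the left and 27.5 to 34.6% in the other 7, while LHY2b takes 28.1 to 29.98% and 3.05 to 12.1%.

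Within the duplicate pairs the balance also moved, more clearly in the LHY1 pair than in the LHY2 pair. LHY1a counts were 5.21, 4.69 and 6.19 times the LHY1b counts in high_force 015 and low_force 055 and 072 (0.5 added to each count), and 1.51 to 2.33 times in the other 7 libraries. LHY2a counts were 0.537, 0.465 and 0.704 times those of LHY2b in the same 3 libraries. In the other 7 this ratio ran from 0.733 in high_force 018 to 2.57 in high_force 071, and it was also below 1 in high_force 060 (0.744). The values of high_force 018 and 060 lie close to the 0.704 of low_force 072. They rest on few counts of LHY2a and LHY2b, 5 and 7 in high_force 018 and 14 and 19 in high_force 060. The LHY1 pair together had 1.29, 1.28 and 1.09 times the counts of the LHY2 pair in the 3 libraries, against 3.28 times (low_force 092) to 11.4 times (high_force 018) in the others. The copies of a pair can share reads, and the sources used here do not state how such reads were counted, so their part in these ratios was not tested.

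The order of libraries inside each set was read from the counts at their effective depths, where neighbours were taken to differ at p under 0.05 in a two-sided exact binomial test that covers counting error only. High_force 015 was the highest library for each of the 4 copies and differed from the next in each. Low_force 055 and 072 did not differ for LHY1a (exact p = 0.822) or LHY2b (exact p = 0.461). For LHY1b, low_force 055 was above low_force 072 (139 and 104 CPM, exact p = 0.00531). For LHY2a the order was turned, with low_force 072 above low_force 055 (286 and 196 CPM, exact p = 9.92e-07). At TMM depths low_force 072 and 055 thus had LHY sums within counting error of each other (1443 and 1412 CPM, exact p = 0.477) with different make-up. As a share of all counts, LHY was 0.125% in low_force 072 and 0.0199% in low_force 055. Comparisons of level between these 2 libraries therefore depend on the scaling.

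Among the 7 libraries with low LHY, LHY1a ran from 19.3 CPM in high_force 018 to 11.8 CPM in low_force 092, and LHY1b from 10.4 CPM in high_force 071 to 5.92 CPM in low_force 038. No neighbours in either order differed beyond counting error. The intervals of the ends were separate, but the ends were picked as the highest and lowest of the 7, so this is a description and no test. The 95% Poisson intervals were 15.8 to 23.4 CPM in high_force 018 and 9.75 to 14.1 CPM in low_force 092 for LHY1a, and 8.65 to 12.4 CPM in high_force 071 and 4.41 to 7.78 CPM in low_force 038 for LHY1b. LHY2a was highest in low_force 092 (4.09 CPM) and low_force 109 (3.32 CPM) and lowest in high_force 018 (0.937 CPM), and the pair of neighbours that differed was high_force 071 and 044 (2.41 and 1.39 CPM, exact p = 0.0401). LHY2b was highest in high_force 060 (3.57 CPM), which differed from the next library, low_force 092 (1.80 CPM, exact p = 0.0384). The neighbour p-values were not adjusted for the 9 pairs in each order. Of the 7 libraries, high_force 018 had the highest value for LHY1a and the lowest for LHY2a, though it did not differ from its neighbour in either order.

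**Figure D3:**
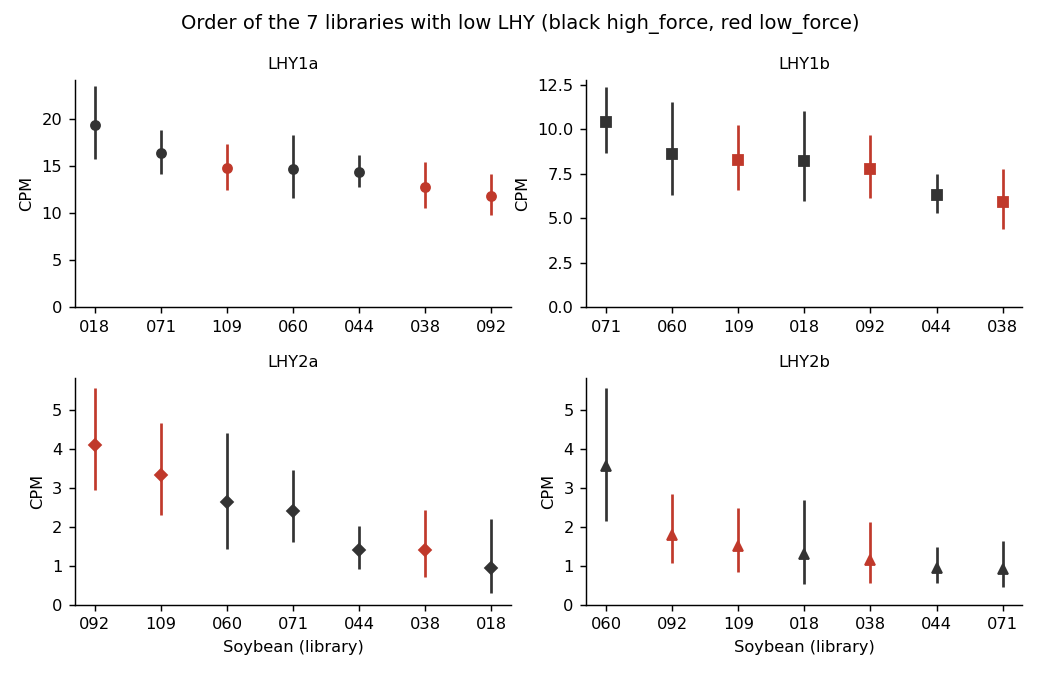
Level in CPM of each copy in the 7 libraries with low LHY, sorted from high to low in each panel, with exact Poisson 95% intervals (black high_force, red low_force). The order of soybeans differs between panels, and all neighbouring intervals overlap, also those of the neighbours that differed in the exact binomial test.

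Levels of different copies were compared across these 7 libraries as log2 CPM, over 6 pairs of copies, with p from two-sided exact permutations. The copies share library, depth and scaling, and the members of a pair may share reads. LHY1a and LHY1b had Pearson's r = 0.48 (exact p = 0.265, adjusted 0.568) and Spearman's rho = 0.64 (exact p = 0.139, adjusted 0.707), and r was 0.90 without the 2 libraries farthest from the median of LHY1a. LHY2a and LHY2b had r = 0.43 (exact p = 0.356, adjusted 0.568) and rho = 0.54 (exact p = 0.236, adjusted 0.707), and r was 0.48 without the 2 farthest. LHY1a and LHY2a had r = -0.55 (exact p = 0.203, adjusted 0.568) and rho = -0.39 (exact p = 0.396, adjusted 0.714), and r turned to 0.59 without the 2 farthest. The remaining 3 pairs had r between -0.18 and 0.40 (adjusted exact p from 0.568 to 0.678) and rho between -0.25 and 0.32 (adjusted exact p from 0.714 to 0.840), with r between -0.44 and -0.05 without the 2 farthest. None of the 6 relations passed.

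Between the groups, which the study set up to find genes that go with pod dehiscence, no copy passed the test. The mean LHY1a level was 221 ± 458 CPM for high_force (SD, n = 5) and 268 ± 349 CPM for low_force (SD, n = 5). The log2 fold change, high_force minus low_force, was -0.27 (SE 1.50). LHY1b was at 46.7 ± 85.6 and 53.0 ± 63.8 CPM (-0.14, SE 1.17), LHY2a at 68.6 ± 149 and 98.2 ± 134 CPM (-0.50, SE 1.72) and LHY2b at 126 ± 279 and 167 ± 226 CPM (-0.39, SE 1.95; SD, n = 5 each). The SD exceeded the mean in each of these 8 cases, and the groups overlapped for each copy (0 of 4 without overlap, against 0.986% of all genes tested). In edgeR's quasi-likelihood test the adjusted p over all 30226 genes tested lay between 0.974 and 0.990, and 0 of the 4 had an unadjusted p under 0.05. DESeq2 also called 0 of 4. Over all genes edgeR called 0 (0% of those tested; 1893 genes at unadjusted p under 0.05) and DESeq2 17 of 29984 (0.0567%). The median log2 fold change was -0.33 for the 4 copies and -0.01 for all genes tested.

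The make-up of the family did not differ between the groups beyond the spread either. Each group mixes libraries of the 3 and of the 7 (1 and 4 in high_force, 2 and 3 in low_force). The means and SDs therefore include that split, and make-up was not compared between the groups within either set. Of the LHY counts, LHY1a held 55.7 ± 7.67% (high_force) and 50.1 ± 6.43% (low_force), LHY1b 25.6 ± 9.70% and 21.0 ± 11.5%, LHY2a 8.28 ± 4.48% and 13.7 ± 4.93%, and LHY2b 10.4 ± 10.7% and 15.2 ± 12.7% (SD over 5 libraries each). In the exact permutation test, two-sided, p lay between 0.111 (LHY2a) and 0.548 (LHY1b), with adjusted p from 0.444 to 0.548 over the 4 shares, where the smallest possible p is 0.00794. The log2 ratio of the LHY1 pair to the LHY2 pair was 2.37 ± 1.27 for high_force and 1.45 ± 1.17 for low_force (SD over 5 libraries each; exact permutation p = 0.238, adjusted 0.714 over 3 ratios). The ratios inside the pairs, LHY1a to LHY1b and LHY2a to LHY2b, had exact permutation p = 0.722 and 0.817 (adjusted 0.817 for both).

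The division into 3 and 7 libraries was then read in all genes. Of the 30226 genes tested, 1889 (6.25%) were higher in each of the 3 than in each of the 7 on log2 CPM with a prior count of 2, and 2044 (6.76%) were lower. All 4 copies were higher. Since the division was placed at the widest gap in their own mean, this and a high rank by the width of the separation are built in. By that width LHY2b ranked 1, LHY2a 2, LHY1a 3 and LHY1b 21 of all genes tested, at log2 differences of 6.74, 5.50, 5.05 and 3.30. By the whole range over 10 libraries the ranks were lower, at 42 for LHY2b, 94 for LHY2a, 460 for LHY1a and 1820 for LHY1b, since other genes varied more within the 3 or the 7. The median range of all genes tested was 1.99 on the log2 scale.

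**Figure D4:**
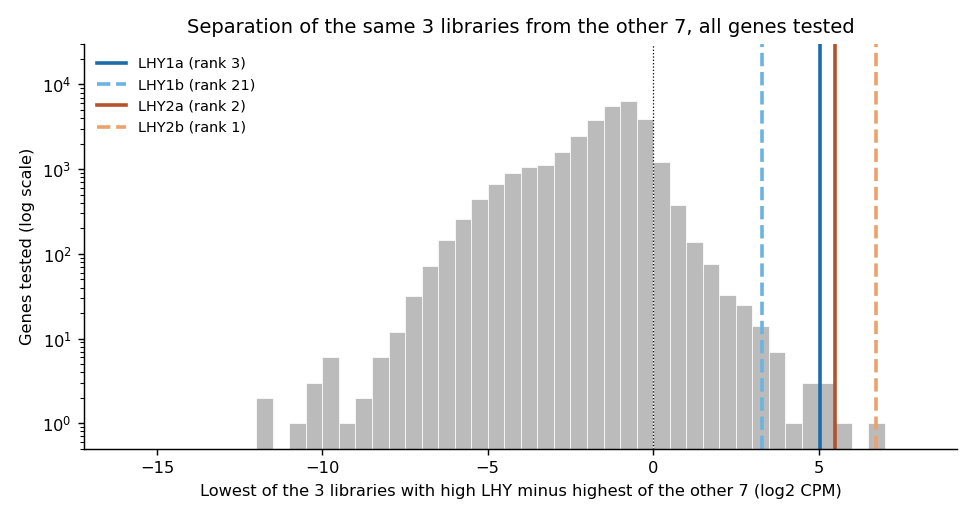
Number of genes tested (log scale) by the log2 CPM of the lowest of the 3 libraries with high LHY minus that of the highest of the other 7, with the LHY copies as vertical lines. Values above 0 mean that the 3 libraries lie above the 7, and LHY2b, LHY2a and LHY1a are the 3 highest of 30226 genes, on a division placed by their own mean.

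The profile of genes outside the family was set against the centred mean log2 CPM of the 4 copies by the root mean square difference over 10 libraries. The copies are part of that mean, so their own values (0.38 for LHY1a, 0.49 for LHY2a, 0.94 for LHY2b and 0.96 for LHY1b) cannot be set beside those of other genes. The genes outside the family most alike were Glyma.02G250700 (0.49; 85.7 to 128 CPM in the 3 libraries, 0.907 to 2.50 CPM in the 7) and Glyma.18G034600 (0.52; 86.8 to 167 CPM and 0.498 to 2.44 CPM). Against the negated profile the nearest were Glyma.07G166400 (0.56; 0 counts in each of the 3 libraries, 5.94 to 16.1 CPM in the 7) and Glyma.02G136700 (0.66; 1.38 to 2.17 CPM and 54.1 to 92.9 CPM). No gene description could be matched to these IDs.

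The genes beside the copies took no part in the division of the libraries, which the copies set, so a wider separation at the copies is built in and the neighbours' values are a description. Of the 80 genes within 10 positions on either side of a copy in gene order, 57 were tested, and 9 of these were higher in each of the 3 libraries than in each of the 7 and 1 was lower, where 6.25% and 6.76% of all genes tested were. The widest separation among these 9 was 1.51 on the log2 scale, beside LHY1b, where LHY1b itself had 3.30. Beside LHY1a it was 0.79, beside LHY2b 0.41 and beside LHY2a 0.29.

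**Figure D5:**
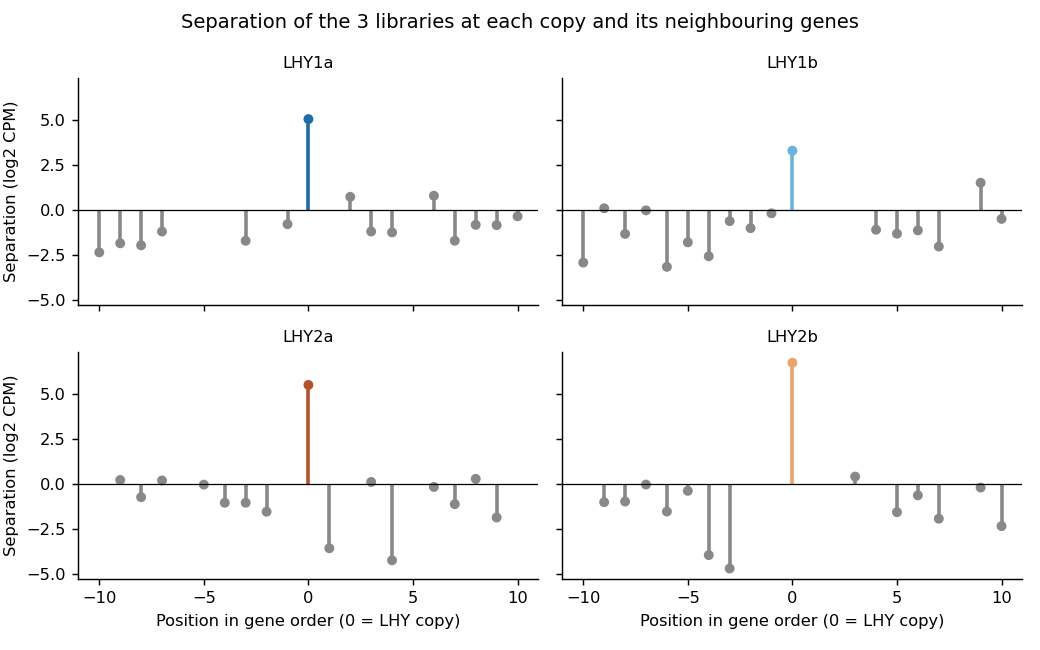
Separation (log2 CPM of the lowest of the 3 libraries with high LHY minus the highest of the other 7) for each copy at position 0 and for the tested genes up to 10 positions away in gene order. The copies stand at 3.30 to 6.74, and no neighbour exceeds 1.51.

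Of 8 other clock genes, 4 were lower in each of the 3 libraries with high LHY than in each of the other 7, against 6.76% of all genes tested, and 4 overlapped. LUX1 (Glyma.12G060200), a DNA-binding member of the evening complex, lay at 0 to 3.26 CPM in the 3 libraries and at 24.4 to 44.2 CPM in the 7, and LUX2 (Glyma.11G136600) at 1.38 to 8.68 and 32.1 to 69.8 CPM. In high_force 015 and low_force 055 and 072 these rest on few counts, 5, 3 and 0 for LUX1 and 14, 8 and 6 for LUX2. J (Glyma.04G050200), an ELF3 protein of the same complex, lay at 8.96 to 14.1 and 21.96 to 114.5 CPM. PRR3a (Glyma.U034500) lay at 32.5 to 48.8 and 74.3 to 151 CPM. PRR3b (Glyma.12G073900) overlapped, since high_force 015 (72.45 CPM) was level with low_force 092 (72.35 CPM). The GIGANTEA gene E2 (Glyma.10G221500), an evening gene upstream of the florigens, overlapped at 118 to 168 and 123 to 214 CPM. The ELF3 homologs Glyma.14G091900 (9.88 to 16.8 and 16.4 to 39.5 CPM) and Glyma.17G231600 (17.4 to 33.8 and 29.4 to 70.0 CPM) overlapped less. In both homologs, low_force 092 was the only library of the 7 below high_force 015.

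The phytochrome A genes E3 (Glyma.19G224200) and E4 (Glyma.20G090000), which carry light input, overlapped between the 3 and the 7, at 6.51 to 12.4 and 4.39 to 12.2 CPM for E3, and at 30.7 to 40.1 and 23.8 to 50.6 CPM for E4.

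Downstream of LHY, E1 (Glyma.06G207800) had 0 counts in each of the 10 libraries, which allows up to 0.149 CPM in high_force 044. In the 3 libraries with high LHY the limit was looser, at 0.495 CPM in high_force 015, 3.26 CPM in low_force 055 and 0.689 CPM in low_force 072. FT2a (Glyma.16G150700) lay at 7.12 to 32.2 CPM in the 3 libraries with high LHY and at 6.20 to 80.8 CPM in the 7. FT5a (Glyma.16G044100) lay at 22.8 to 46.7 and 4.33 to 28.5 CPM, so both florigen genes overlapped. For FT5a the overlap came from low_force 092 alone (28.5 CPM), as the next of the 7 was low_force 109 at 13.8 CPM. Between high_force and low_force edgeR's quasi-likelihood test called 0 of the 8 clock genes and 0 of the 4 tested genes of flowering and light input (E1 was not tested), with smallest adjusted p = 0.805 and 0.796 over all genes and 0 at unadjusted p under 0.05. DESeq2 called 0 of these 12, with 1 at unadjusted p under 0.05. The median log2 fold change was 0.54 for the 8 clock genes and -0.44 for the other 4.

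Of the 3 libraries with high LHY, low_force 055 and 072 had the lowest effective depths and the highest shares of counts in their 10 most abundant genes, and high_force 015 lay inside the range of the other 7. Effective depth, the library size after TMM scaling, was 6059748, 921615 and 4351305 counts in high_force 015 and low_force 055 and 072, and 5325878 to 20099288 counts in the other 7. The share of the 10 most abundant genes was 14.7, 85.8 and 36.1% in these 3 and 3.38 to 20.9% in the 7. The part of depth in the split was not tested. The pod wall genes overlapped (2 of 2), as most genes tested did (6.25% were above and 6.76% below in the 3 libraries). The seed genes also overlapped (2 of 2), the glycinin gene Gy1 at 5.43 to 9.74 CPM against 0.299 to 5571 CPM and the lectin gene Le1 at 0 to 1.09 CPM against 0.0498 to 438 CPM. Both upper ends among the 7 were low_force 109, and the next was high_force 060, at 65.3 CPM for Gy1 and 0.939 CPM for Le1.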

How the data were processed

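The data are raw read counts for each of 56044 genes (whole numbers) in 10 pod libraries, as the authors deposited them. Per the submitters' processing notes, the tools were Subread 1.6.2, featureCounts, TopHat2, Trim Galore 0.4.4 and edgeR; their roles and settings are not stated there. The genome build, strand handling and the counting of reads that match several genes are not given in the sources used here; gene IDs end in Wm82.a2.v1. Of the IDs, 0 matched the RefSeq table of 59048 genes, so no sequence, length or description was used.

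Counts were scaled by TMM and filtered with filterByExpr, which kept 30226 genes. The contrast of high_force with low_force was fitted by quasi-likelihood in edgeR 4.0.16 (R 4.3.3). SE is the log2 fold change over the square root of F. P-values were adjusted by the Benjamini-Hochberg method across every tested gene and called under 0.05. DESeq2 1.42.0 was an alternative. The fit was checked on simulated counts. Shares and ratios were compared by exact permutation over 252 assignments, with Python 3.11.15 and scipy 1.17.1. Log2 CPM uses a prior count of 2.

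The members and gene lists were chosen with earlier results of these data known. The rule for named genes was the 4 copies, a list of 13 clock, flowering and light genes named from published work as recalled, and the 2 IDs nearest to the family profile and to its negative.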

Additional observations from a re-analysis of the deposited data

Results flagged for a closer look

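Within groups of 5, 46 sets of values (log2 CPM of LHY and listed genes, shares and ratios) were examined for a value with a wide gap to the rest. Chance alone flags roughly 1 set in 20. There were 8 such values, all 8 in high_force 015. They come from a single library and are not independent of each other. Its log2 CPM was 10.02 for LHY1a, 7.64 for LHY1b, 8.39 for LHY2a and 9.29 for LHY2b, where the next high_force library had 4.29, 3.41, 1.52 and 1.93. On the low side, the same library had log2 CPM of 3.50 for J, 0.094 for LUX1 and 1.35 for LUX2, with the next at 6.13, 4.62 and 5.59. LHY1b held 9.07% of its LHY counts, against 27.5% in the nearest high_force library. In low_force the LHY values of 055 and 072 lie together, so neither stands apart from its group by this rule.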

How the results depend on the processing

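No paired analysis was possible because the groups share no soybean number. The log2 fold changes of the 4 copies missed the threshold in each setting, and their signs were not stable. Scaling by library size alone moved the median over all genes to 0.54, and then LHY1a, LHY1b, LHY2a and LHY2b had 0.92, 1.05, 0.51 and 0.85 (0.38, 0.51, -0.03 and 0.31 relative to that median). Leaving out each soybean gave -4.04 to 0.38, -2.60 to 0.57, -5.71 to 0.52 and -6.69 to 0.30; the lowest values are those without high_force 015 (adjusted p = 0.536 in edgeR). Genes called over all genes were 17 with DESeq2, 62 with library size only, and 0 to 1 without a soybean (1 without high_force 015 or 071 or low_force 055). Without a soybean, the group difference in the log2 ratio ran from -0.53 to 0.048 for LHY1a to LHY1b and from -0.49 to 0.089 for LHY2a to LHY2b. That of the LHY1 to the LHY2 pair ran from 0.59 to 1.42. The group differences in share, in percentage points, ran from 3.33 to 8.11 for LHY1a, 1.13 to 8.72 for LHY1b, -7.16 to -3.85 for LHY2a and -9.30 to -1.11 for LHY2b. No share, ratio or correlation passed in any setting. The fold between the 3 and the 7 libraries, an alternative chosen after seeing the data, was 3.38, 1.44, 5.84 and 12.6 with library size only, and 33.5 to 39.7, 10.04 to 13.4, 48.0 to 69.9 and 114 to 226 without a soybean. With library size only, low_force 055 was the lowest of the 3 for each copy. The cause of these shifts was not tested. Shares per coding length were not run, as no lengths could be matched. Low counts limit LHY2a and LHY2b in the 7 libraries.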
